A study of Mus musculus with 18 samples.

Results

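Immunoglobulin V segments are the germline gene pieces that encode most of the antigen-binding domain of an antibody. The set described here holds the mouse genes annotated as V segments of the heavy, kappa and lambda loci chosen by their mean level over the 18 libraries, at least 1 FPKM (fragments per kilobase of transcript and per 1000000 mapped fragments (1 M)). Of 216 annotated V segments, 204 were in the expression table and 181 met this level, 87 heavy, 91 kappa and 3 lambda, out of 35275 genes in the table, of which 11646 reached the same mean. That level chose the members, so levels and their order are given as a description. It did not use any comparison between the groups.

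The RNA came from pan B cells of the spleen of C57BL/6 mice, 3 libraries in each of 6 groups. The cells were first held for 1 h with 1000 ng/ml of either mBaffR-mFc, by its name a fusion of the mouse BAFF receptor to a mouse Fc part, or a control antibody. They then received 100 ng/ml of BAFF, the B cell survival factor, as a 60mer or a 3mer, or were left without BAFF, for 4 h. The groups are BRFc_60mer, BRFc_3mer and BRFc after mBaffR-mFc, and Ab_60mer, Ab_3mer and Ab after the control antibody. The labels state no replicate numbers and do not say whether libraries came from separate animals, so p-values measure the spread between these libraries only.

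A B cell builds its heavy chain gene by joining 1 V segment to D and J segments, and its light chain gene by joining a kappa or lambda V segment to a J segment. The joining is made in precursor cells, and the joined segment is then transcribed from its own V promoter, with the constant region gene at the other end of the transcript. Ighm, Igkc and Iglc2 encode the constant regions of mu, kappa and lambda 2 chains. In the heavy locus all V segments lie in the same orientation as the J segments, whereas the kappa locus holds V segments in both orientations, which join by deletion or by inversion. In bulk RNA, fewer cells that use a segment and less of its RNA per cell cannot be told apart.

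The ends of the segments that the results turn on are shown first, because the conserved cysteine codon near the end marks where the joined part of the antigen-binding loop begins, and because segments of a family can share long stretches. Each line gives the last 60 coding bases, 5′ to 3′, from GENCODE M21 transcripts on GRCm38, with the last in-frame cysteine codon in capitals. The first 4 passed the test between Ab_60mer and Ab, Igkv12-44 and Igkv13-85 each passed another comparison, Igkv13-84 is the neighbour of Igkv13-85, Igkv10-96 had the widest spread, and Iglv1 and Iglv2 are the related lambda segments.
Igkv14-111 (chr6:68256810-68256869, plus strand): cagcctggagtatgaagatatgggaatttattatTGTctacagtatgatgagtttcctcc
Igkv17-127 (chr6:67861600-67861659, plus strand): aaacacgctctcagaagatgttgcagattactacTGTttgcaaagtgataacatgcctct
Igkv4-74 (chr6:69184826-69184885, minus strand): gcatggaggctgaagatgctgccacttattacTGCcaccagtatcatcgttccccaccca
Ighv1-75 (chr12:115833950-115834009, minus strand): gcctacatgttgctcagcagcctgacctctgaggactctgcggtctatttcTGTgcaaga
Igkv12-44 (chr6:69814631-69814690, minus strand): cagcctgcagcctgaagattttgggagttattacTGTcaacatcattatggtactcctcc
Igkv13-85 (chr6:68930269-68930328, minus strand): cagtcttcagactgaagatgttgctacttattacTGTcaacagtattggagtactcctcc
Igkv13-84 (chr6:68940008-68940067, plus strand): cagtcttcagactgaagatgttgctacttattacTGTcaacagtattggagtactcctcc
Igkv10-96 (chr6:68631963-68632022, minus strand): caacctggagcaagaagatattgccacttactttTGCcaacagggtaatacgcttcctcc
Iglv1 (chr16:19085017-19085076, minus strand): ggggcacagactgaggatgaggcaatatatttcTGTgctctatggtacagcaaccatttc
Iglv2 (chr16:19260401-19260460, minus strand): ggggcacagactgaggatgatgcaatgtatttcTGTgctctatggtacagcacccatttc

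The 6 bases after the codon in Ighv1-75 and the 23 or 25 in the 7 kappa segments shown are all that the germline V gives to the loop. The letters TATTACTGT, which read in frame spell tyrosine, tyrosine and cysteine, were searched on the coding strand in any frame. They were present in the coding sequence of 89 of 181 members (49.2%), 52 of 87 heavy, 37 of 91 kappa and 0 of 3 lambda. The last 60 bases of Igkv13-85 and Igkv13-84 were identical, and over 347 coding bases the pair differed at 13. Iglv1 and Iglv2 differed at 11 of 351 coding bases, and 3 of these lie within the bases shown. Over the whole set, 69 members shared at least 1 window of 100 bases with another V transcript, and in 3 members (Igkv8-16, Igkv6-29 and Igkv6-20) at least 50% of the windows were shared, so their fragments may have been split between copies.

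The libraries held between 12.2 and 25.4 M fragments (median 18.4 M). Of 8 B cell genes, Cd79a and Cd79b, the signalling chains of the B cell receptor, lay between 772 and 936 FPKM and between 722 and 832 FPKM. Ms4a1 lay between 168 and 188 FPKM, and Cr2, the lowest of the 8, between 29.3 and 41.0. Fcer2a averaged 235 FPKM in BRFc_60mer against 164 in BRFc, and 220 in Ab_60mer against 172 in Ab. Cd22 averaged 167 FPKM in BRFc_60mer against 190 in BRFc, and 160 in Ab_60mer against 190 in Ab. The 6 T cell genes summed to between 3.16 and 4.89 FPKM. The 6 myeloid genes summed to between 138 and 172 FPKM, of which Lyz2 gave between 95.6 and 120. Transcripts of 6 connective tissue genes, 5 of which had a mean under 1 FPKM, summed to between 8.14 and 12.9 FPKM in 8 libraries, all of BRFc_60mer and Ab_60mer and replicates 1 and 2 of Ab_3mer, and to between 0 and 0.131 FPKM in the other 10. The comparisons of 60mer with no BAFF, and of BRFc_60mer with BRFc_3mer, lie across that split. Comparisons with Ab_3mer lie partly across it, since replicates 1 and 2 of Ab_3mer held these transcripts. The part of the split in the results was not tested. NK cell genes (4 genes) summed to between 39.5 and 41.0 FPKM in Ab_60mer against 47.2 to 52.8 in Ab, and to between 40.4 and 44.6 in BRFc_60mer against 44.8 to 52.1 in BRFc.

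Kappa V segments gave the largest summed level and lambda the smallest. Over the 18 libraries the summed level lay between 3466 and 4049 FPKM for kappa, between 2041 and 2347 FPKM for heavy, and between 470.0 and 629.2 FPKM for lambda. V segments together took between 0.208% and 0.239% of the fragments. Each sum was set against 1 constant region gene of its locus, on the same per-length scale. The heavy sum was 0.895 to 1.02 times Ighm and the kappa sum 0.684 to 0.817 times Igkc. The lambda sum was 0.775 to 0.958 times Iglc2. Ighd, Iglc1 and Iglc3 were not found in the table, so the heavy and lambda ratios leave out these constant regions. The 3 lambda segments made up 11.7% to 15.2% of the light chain V sum.

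The heavy and lambda sums overlapped between all groups, and the kappa sums did not in 5 of 15 pairs. The sum of all V segments in Ab_60mer (6576 to 6669 FPKM) lay above every library of BRFc_60mer, BRFc, Ab_3mer and Ab. It overlapped with that of BRFc_3mer. The heavy sum averaged 2205 ± 143 FPKM in BRFc_60mer, 2208 ± 49.7 in BRFc_3mer, 2212 ± 75.4 in BRFc, 2241 ± 73.3 in Ab_60mer, 2218 ± 121 in Ab_3mer and 2146 ± 37.3 in Ab (SD, n = 3 each). The libraries of each pair of groups overlapped in all 15 pairs. The kappa sum averaged 3654 ± 163 FPKM in BRFc_60mer, 3866 ± 166 in BRFc_3mer, 3587 ± 78.1 in BRFc, 3796 ± 53.0 in Ab_60mer, 3552 ± 89.3 in Ab_3mer and 3608 ± 115 in Ab. The 3 kappa sums of BRFc_3mer (3726, 3823 and 4049 FPKM) all lay above those of Ab_3mer (3537, 3471 and 3648 FPKM) and of BRFc (3539, 3677 and 3546 FPKM), and those of Ab_60mer (3856, 3756 and 3776 FPKM) above those of Ab_3mer, of BRFc and of Ab (3564, 3738 and 3521 FPKM). The other 10 pairs of groups overlapped. The lambda sum averaged 522 ± 18.4 FPKM in BRFc_60mer, 544 ± 57.3 in BRFc_3mer, 567 ± 71.0 in BRFc, 575 ± 39.8 in Ab_60mer, 531 ± 81.1 in Ab_3mer and 556 ± 36.1 in Ab, with overlap in all 15 pairs.

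**Figure D1:**
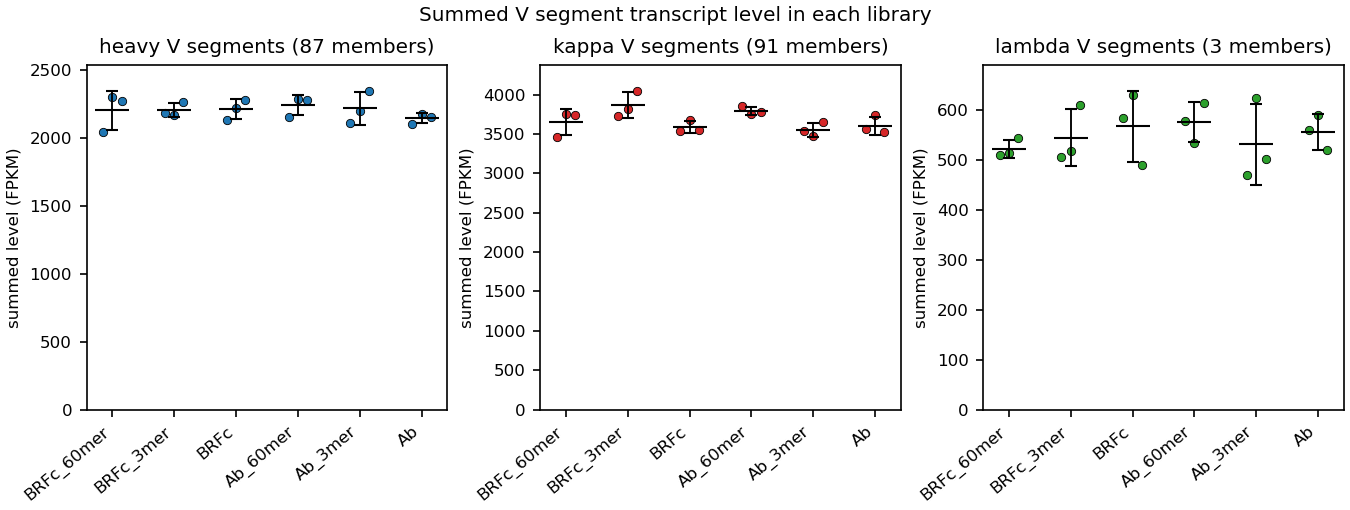
Summed FPKM of the heavy, kappa and lambda members in each library (points), with the mean and SD of each group of 3 (bars), the vertical axes starting at 0. The heavy points sit between 2041 and 2347, the kappa points between 3466 and 4049 and the lambda points between 470.0 and 629.2. The groups overlap, except in 5 of 15 pairs for kappa.

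The heavy level was spread over many segments and led by the Ighv1 family, the large J558 family of C57BL/6 mice. Its 43 members (of 53 annotated) made up 56.8% of the heavy sum over all libraries and between 55.1% and 58.4% in single libraries. Ighv5 followed with 9 members and 8.56%, and Ighv14, Ighv2, Ighv3, Ighv9 and Ighv6 each gave 4.42% to 4.87%. The 17 highest members together passed 50% of the heavy sum. By group, the Ighv1 share averaged 56.1% ± 1.22 in BRFc_60mer, 57.1% ± 1.14 in BRFc_3mer, 56.3% ± 0.783 in BRFc, 56.4% ± 0.809 in Ab_60mer, 57.6% ± 0.916 in Ab_3mer and 57.4% ± 0.906 in Ab (SD, n = 3 each), differences of about the size of these SDs.

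Single heavy segments ranged from 1.19 to 175 FPKM as means over 18 libraries (median 18.3). Ighv1-26 was highest with a mean of 175 FPKM and a range of 164 to 190. It was followed by Ighv1-82 (mean 113, range 98.4 to 127), Ighv1-80 (82.6, range 75.5 to 92.7) and Ighv9-3 (79.7, range 63.2 to 103). Ighv3-6 (71.0, range 62.3 to 78.0) and Ighv1-64 (62.8, range 54.1 to 70.8) came next. The ranges of Ighv1-26 and Ighv1-82 did not touch, whereas those of Ighv1-80, Ighv9-3 and Ighv3-6 overlapped, so the order among these 3 is not fixed by these libraries.

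The kappa level was shared among more families. Igkv6 gave 15.6% of the kappa sum from 9 members, Igkv4 15% from 25, Igkv1 13.8% from 8 and Igkv8 10.3% from 8. The 18 highest passed 50% of the kappa sum. Igkv1-135 had a mean of 185 FPKM (range 172 to 196) and Igkv1-117 one of 182 (range 143 to 224), overlapping ranges. Igkv6-15 (152, range 134 to 177), Igkv10-96 (131, range 58.7 to 190), Igkv6-32 (120, range 104 to 133) and Igkv6-23 (107, range 100.1 to 116) came next. In the lambda locus Iglv1 averaged 245 FPKM (range 190.2 to 314), Iglv3 209 (range 188 to 223) and Iglv2 95.9 (range 69.0 to 114). Iglv2 lay below both others in all 18 libraries, and the ranges of Iglv1 and Iglv3 overlapped.

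High segments were found at both ends of the loci, as the plot of level against distance from the J segments shows. When the 87 heavy members were divided by their distance from the nearest J segment, the 29 nearest (149 to 747 kb) gave 27.6% of the heavy sum, the 29 in the middle (767 to 1507 kb) 35.6% and the 29 farthest (1561 to 2570 kb) 36.8%. In the kappa locus the 31 nearest (18.4 to 864 kb) gave 39.6%, the 30 in the middle (899 to 1860 kb) 22.6% and the 30 farthest (1887 to 3166 kb) 37.7%. The share of the middle kappa segments stayed between 21.1% and 23.7% in single libraries, below the lowest share of the nearest (37.5%) and of the farthest (36.2%). Kappa members in the orientation of the J segments numbered 34, with a median mean level of 35.2 FPKM, and those in the opposite orientation 57, with a median of 23.7 FPKM.

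**Figure D2:**
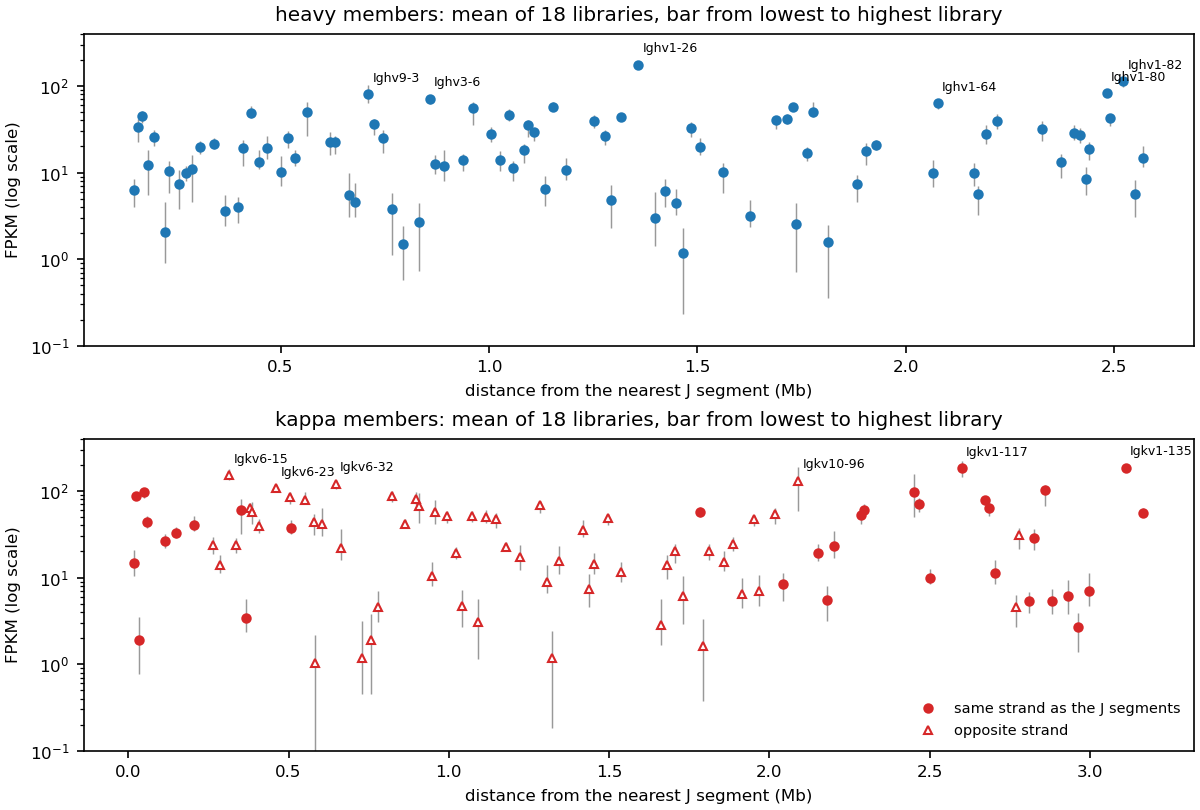
Mean FPKM over the 18 libraries (log axis) of each heavy member (above) and each kappa member (below) against its distance from the nearest J segment, with bars from the lowest to the highest library. The 6 highest members of each locus are named, filled circles and open triangles in the lower panel give the orientation, and the bar of Igkv6-29, listed at 0 in its lowest library, is drawn to 0.1 FPKM.

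Members near the threshold were just inside with 1.04 FPKM (Igkv6-29), 1.17 (Igkv4-62) and 1.19 (Ighv1-37), and just outside with 0.995 (Igkv4-71), 0.979 (Igkv3-9) and 0.898 (Ighv1-43). Of the 204 V segments in the table, 23 were below 1 FPKM, and 12 more annotated segments were not analysed here. Of the 181 members, 169 reached 1 FPKM in every library and 175 in the mean of every group. The low members carried few fragments: Igkv4-62 had 1 to 12 fragments a library and Igkv6-29 had 0 to 13. Igkv6-29 differed from Igkv6-20 (57.0 FPKM) at 5 of 347 coding bases and shared 55.8% of its windows.

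Few V segments passed a test between the groups. The test was limma on log2(FPKM + 1) over all 11646 genes, with Benjamini-Hochberg adjusted p under 0.05 as the threshold, and all differences below are on that scale, which understates the change of low genes. Between Ab_60mer and Ab, 4 of 181 V segments rose and 0 fell, while 14% of all genes tested passed, 5.04% as higher and 8.94% as lower. Between BRFc_60mer and BRFc 1 rose and 0 fell, against 4.83% of all genes (1.46% higher and 3.37% lower). Between BRFc_60mer and BRFc_3mer 0 rose and 1 fell, against 5.16% of all genes (2.05% higher and 3.11% lower). Between Ab_60mer and Ab_3mer 0 passed, against 4.81% of all genes (1.8% higher and 3.01% lower). Each of these shares of V segments (2.21%, 0.552%, 0.552% and 0) lay under that of all genes.

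The difference of a V segment also had a wider error than that of the median gene. The median SE of a V segment's log2 difference was 0.135, against 0.0778 over all genes tested, and the median member had 140 fragments a library. At an unadjusted p under 0.05, 18 V segments (9.94%) passed between Ab_60mer and Ab against 29.6% of all genes, 10 (5.52%) between Ab_60mer and Ab_3mer against 20.3%, 12 (6.63%) between BRFc_60mer and BRFc against 18.7%, and 11 (6.08%) between BRFc_60mer and BRFc_3mer against 19.0%. The median log2 difference over the members was 0.05 between Ab_60mer and Ab, with 116 of 181 above 0, against a median of -0.02 over all genes, with 45.1% above 0. It was -0.01 between BRFc_60mer and BRFc, with 88 above 0, against -0.02 over all genes, with 43.0% above 0. Rescaling by median of ratios turned that member median to 0.02.

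With the 3mer no V segment passed in the fit of all 18 libraries. The limma test called 0 of 181 V segments and 0 of all genes between Ab_3mer and Ab, and 0 and 0 between BRFc_3mer and BRFc. At an unadjusted p under 0.05 these comparisons had 12 and 11 V segments. The pretreatment likewise gave 0 V segments: 0 between BRFc and Ab (19 at an unadjusted p under 0.05), 0 between BRFc_3mer and Ab_3mer (11) and 0 between BRFc_60mer and Ab_60mer (10), with 0, 0 and 0.0258% of all genes called. Limma with voom weights on the fragments recovered from the FPKM also called 0 V segments in these 5 comparisons and between Ab_60mer and Ab_3mer. With only the libraries of the groups compared in the fit, limma called Igkv12-44 between BRFc_3mer and BRFc, Igkv12-44 and Igkv10-96 between BRFc_3mer and Ab_3mer, and Igkv6-20 and Ighv12-3 between Ab_60mer and Ab_3mer, each as higher. The interaction of BAFF 60mer with the pretreatment called 0 V segments (15 at an unadjusted p under 0.05, 0.00859% of all genes called), and that of BAFF 3mer called 0 (9, with 0 of all genes).

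**Figure D3:**
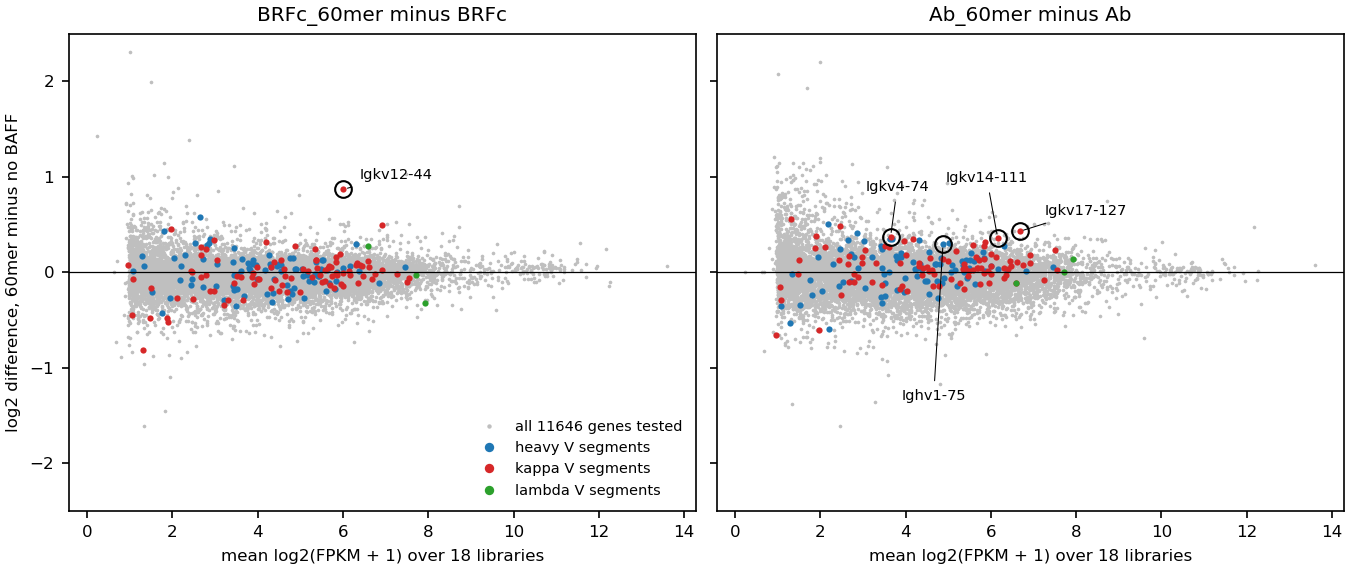
Log2 difference of 60mer minus no BAFF against mean level for all 11646 genes tested (grey) and the heavy, kappa and lambda V segments (colours), after mBaffR-mFc (left) and after the control antibody (right). Circles mark the V segments that passed the test, 1 on the left and 4 on the right, and the other V segments lie around 0 within the cloud of all genes.

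Igkv14-111 rose in Ab_60mer against Ab. It had 82.5, 77.5 and 75.1 FPKM in Ab_60mer, against 56.8, 59.2 and 66.6 FPKM in Ab, without overlap. The log2 difference was 0.36 ± 0.076 (SE; limma adjusted p = 0.00569). The call held without any single library and under every alternative setting run. Ab was also the lower group against BRFc (0.25 ± 0.076, limma adjusted p = 0.829) and against Ab_3mer (0.18 ± 0.076, limma adjusted p = 0.881). The difference between Ab_60mer and Ab_3mer was 0.18 ± 0.076 and did not pass (limma adjusted p = 0.187). Limma's F test over the 6 groups did not pass in the main analysis (limma adjusted p = 0.0572). Its 3 BRFc_60mer libraries (63.3, 75.9 and 73.8 FPKM) spanned those of BRFc (72.6, 72.5 and 71.6 FPKM), a log2 difference of -0.03 ± 0.076 (limma adjusted p = 0.885), and the interaction of -0.39 ± 0.107 did not pass (limma adjusted p = 0.711).

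Igkv17-127 rose in Ab_60mer against Ab, where it was low in 2 libraries. It had 109, 105 and 108 FPKM in Ab_60mer, against 97.9, 75.2 and 67.6 FPKM in Ab, a log2 difference of 0.43 ± 0.097 (limma adjusted p = 0.0091). Every library outside Ab held between 94.7 and 116 FPKM, so 2 libraries of Ab, replicates 2 and 3, lay below the other 16. The same size of difference stood between Ab_3mer and Ab (0.42 ± 0.097, limma adjusted p = 0.657) and between BRFc and Ab (0.41 ± 0.097, limma adjusted p = 0.829), comparisons that share the Ab libraries and in which 0 of all genes passed. With only the libraries of the groups compared in the fit, its limma adjusted p was 0.0503. It shared 16.9% of its windows with Igkv17-121, from which it differed at 9 of 353 coding bases.

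Igkv4-74 and Ighv1-75 passed with larger adjusted p, and both lost the call under some settings. Igkv4-74 had 12.8, 10.2 and 15.3 FPKM in Ab_60mer, against 9.97, 9.19 and 9.28 FPKM in Ab, a log2 difference of 0.37 ± 0.107 (limma adjusted p = 0.0293). It ran the other way after mBaffR-mFc, with 10.4, 11.6 and 10.4 FPKM in BRFc_60mer against 13.5, 14 and 12.7 in BRFc, a log2 difference of -0.29 ± 0.107 that did not pass (limma adjusted p = 0.145), and the interaction of -0.66 ± 0.152 did not pass either (limma adjusted p = 0.511). Ighv1-75 had 29.6, 31.7 and 31.1 FPKM in Ab_60mer, against 24.3, 26.3 and 24.0 FPKM in Ab, a log2 difference of 0.30 ± 0.09 (limma adjusted p = 0.0365). Its 3 BRFc_60mer libraries had 27.3, 26.0 and 35.5 FPKM against 28.5, 28.5 and 29.0 in BRFc. Ighv1-75 lost the call without any 1 of the 6 libraries compared (limma adjusted p up to 0.105), and Igkv4-74 without any of them but replicate 2 of Ab_60mer (up to 0.108). Both also lost it without a filter on low values and with voom on recovered fragments, and Igkv4-74 with only the groups compared in the fit as well, with limma adjusted p up to 0.0941 for Ighv1-75 and up to 0.101 for Igkv4-74.

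Igkv12-44 was the V segment that rose in BRFc_60mer. It had 73.0, 92.3 and 83.4 FPKM in BRFc_60mer, against 42.5, 46.8 and 44.9 FPKM in BRFc, a log2 difference of 0.87 ± 0.195 (limma adjusted p = 0.0152). The libraries of BRFc_60mer and BRFc did not overlap. The other groups are given beside them, and the cause of the difference was not tested. BRFc_3mer had 89.2, 89.3 and 94.4 FPKM, which set against BRFc gave 1.01 ± 0.195 (limma adjusted p = 0.953, in a comparison where 0 of all genes passed; 0.000304 with only these 2 groups in the fit). Ab_60mer had 59.4, 92.2 and 49.4 FPKM and Ab 43.1, 81.7 and 67.0 FPKM, a log2 difference of 0.06 ± 0.195 (limma adjusted p = 0.863). Ab_3mer had 46.1, 49.4 and 50.2 FPKM. The call was lost without replicate 2 of BRFc_60mer (limma adjusted p = 0.07) or replicate 3 of BRFc, and without a filter on low values (0.0501).

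Igkv13-85 was the V segment that fell in BRFc_60mer against BRFc_3mer. It had 0.377, 0.955 and 0.848 FPKM in BRFc_60mer, against 2.53, 2.34 and 2.20 FPKM in BRFc_3mer, a log2 difference of -0.97 ± 0.253 (limma adjusted p = 0.0328). It averaged 10.2 fragments a library, with 2 in the lowest. The call was lost without any 1 of the 6 libraries compared (limma adjusted p up to 0.13), without a filter on low values and on recovered fragments with voom. Its neighbour Igkv13-84, which has the same last 60 coding bases and shares 37.9% of its windows, was at 57.2, 53.4 and 54.0 FPKM in BRFc_60mer against 60.9, 59.4 and 65.8 FPKM in BRFc_3mer, and how fragments were divided between the pair was not tested.

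**Figure D4:**
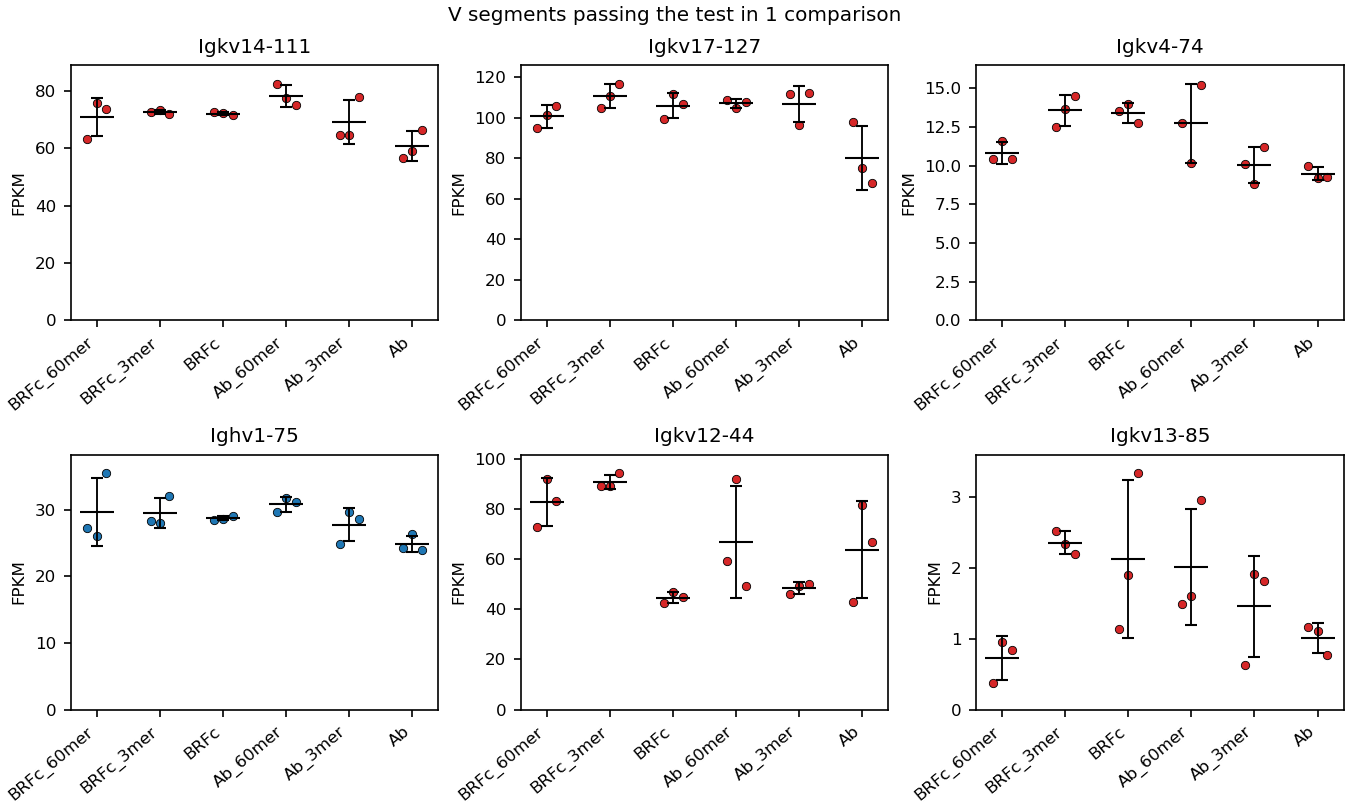
FPKM of the 6 V segments that passed a pairwise comparison, in every library (points) with the mean and SD of each group of 3 (bars). Ab has the lowest mean for Igkv14-111, Igkv17-127, Igkv4-74 and Ighv1-75, while Igkv12-44 is high in BRFc_60mer and BRFc_3mer and mixed in Ab_60mer and Ab.

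Across all 6 groups at once, limma's F test called 5 of 181 V segments, against 8.93% of all genes. They were Igkv12-44 (limma adjusted p = 0.0103), Igkv4-74 (0.0171), Igkv16-104 (0.0199), Igkv17-127 (0.0266) and Ighv9-1 (0.032). Igkv16-104 averaged 53.9 ± 1.09 FPKM in BRFc_60mer, 57.9 ± 1.10 in BRFc_3mer and 58.9 ± 3.28 in BRFc, against 62.2 ± 4.65 in Ab_60mer, 65.9 ± 2.86 in Ab_3mer and 67.2 ± 5.86 in Ab (SD, n = 3 each), so each group with mBaffR-mFc had the lower mean. Ighv9-1 averaged 8.23 ± 1.53 FPKM in BRFc_60mer, 5.82 ± 1.14 in BRFc_3mer and 5.11 ± 0.403 in BRFc, against 5.31 ± 0.47 in Ab_60mer, 4.42 ± 1.24 in Ab_3mer and 4.07 ± 1.18 in Ab. Neither passed a single pairwise comparison.

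The main constant region genes passed no pairwise comparison, whereas 2 factors of B cell gene control rose with the 60mer. Ighm, Igkc and Iglc2 passed in none of the 9 pairwise comparisons, and Jchain, the joining chain of polymeric antibody, did not either. Igkc still had its lowest levels in BRFc_60mer (4491, 4599 and 4625 FPKM), below every library of the other groups (4674 to 5275 FPKM). Pou2af1, the coactivator that acts with octamer-binding factors at V promoters, had 426, 463 and 460.3 FPKM in Ab_60mer against 342, 366 and 349 in Ab, a log2 difference of 0.35 ± 0.051 (limma adjusted p = 0.000407), and in BRFc_60mer it had 446, 451 and 457 FPKM against 336, 354 and 379 in BRFc, a log2 difference of 0.34 ± 0.051 (limma adjusted p = 0.00088). Spib, an Ets factor of B cells, rose by 0.36 ± 0.04 (limma adjusted p = 3.83e-05) in Ab_60mer against Ab. Of the 8 octamer and enhancer factors tested (a ninth, in the list of 9, had a mean under 1 FPKM), 2 rose and 1, Spi1, fell between Ab_60mer and Ab, and 2 rose and 0 fell between BRFc_60mer and BRFc. Of 7 plasma cell genes tested 0 rose and 1, Sdc1, fell in each of these comparisons. Ighg1, the gamma 1 constant region, had 9.71, 8.997 and 7.85 FPKM in BRFc_60mer against 2.65, 3.17 and 2.505 in BRFc, a log2 difference of 1.38 ± 0.274 (limma adjusted p = 0.00689). It had 4.87, 5.37 and 5.96 FPKM in Ab_60mer against 4.06, 3.14 and 2.95 in Ab, a difference of 0.55 ± 0.274 that did not pass (limma adjusted p = 0.189), and 6.94, 6.77 and 2.08 FPKM in Ab_3mer. The 8 libraries with connective tissue transcripts held 4.87 to 9.71 FPKM of Ighg1 and the other 10 held 1.44 to 4.06, and the part of that split in its rise was not tested. In Ab_3mer, where replicates 1 and 2 held connective tissue transcripts, Pou2af1 had 348, 342 and 369 FPKM. The part of the split in the rise of Pou2af1 was not tested either.

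Some V segments varied widely between libraries of the same group. If libraries differed by counting alone, the variance over the expected counting variance would be about 1. Within groups the median was 2.21 for the 181 members, against 2.74 for the other 11465 genes tested, which carry more fragments. In bins of like fragment number the members lay below the other genes where fragments were few and above them where they were many. With 5 to 50 fragments a library the median was 1.69 for 47 members against 1.85 for 1038 other genes, and with 50 to 150 it was 2.07 for 50 members against 1.90 for 1456 others. With 150 to 400 it was 2.22 for 56 members against 2.09 for 1937 others, and with 400 to 1600 it was 3.63 for 28 members against 2.78 for 4081 others. The members that exceeded the 95th percentile of the other genes of their bin, which 5% of those genes exceed by construction, were 0 of 47, 3 of 50 (6%), 8 of 56 (14.3%) and 6 of 28 (21.4%), from the lowest bin to the highest.

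Igkv10-96, the member with the widest spread, had libraries at separate levels. Its within-group ratio of 115 ranked it 74 among the 11646 genes. In 10 libraries it stood between 157 and 190 FPKM and in 8 between 58.7 and 88.6, with none between. The upper level held 2 libraries of BRFc_60mer, all 3 of BRFc_3mer, 1 of BRFc, 2 of Ab_60mer, 0 of Ab_3mer and 2 of Ab. So BRFc_3mer (167, 178 and 190 FPKM) and Ab_3mer (88.6, 81.0 and 70.0 FPKM) were fully apart, with a log2 difference of 1.15 ± 0.41 (limma adjusted p = 0.998; 0.00282 with only these 2 groups in the fit). Its relatives Igkv10-94 (41.4 to 63.2 FPKM) and Igkv10-95 (5.31 to 11.4 FPKM), which differ from it at 16 and 20 of 347 coding bases, did not split in this way.

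By a rule set after the values were seen (a gap of at least 0.2 on the log2 scale with at least 4 libraries on each side, and a variance over 10 times that of counting), 6 members fell into separate levels. Besides Igkv10-96 these were Igkv1-110, Igkv12-44, Ighv14-2, Ighv9-3 and Igkv8-30. The rule was run on the 181 members only, so how often other genes meet it was not tested. Ighv14-2 stood at 49.8 to 65.1 FPKM in 12 libraries and at 26.2 to 36.4 in 6, and Igkv8-30 at 57.6 to 62.8 FPKM in 4 and at 30.2 to 41.8 in 14. The gaps were narrower in Igkv12-44 (10 libraries at 59.4 to 94.4 FPKM, 8 at 42.5 to 50.2) and in Ighv9-3 (6 at 93.8 to 103, 12 at 63.2 to 80.1). The same held for Igkv1-110 (4 at 122 to 155, 14 at 50.5 to 105). From the top of the lower level to the bottom of the upper, these gaps were 1.18, 1.17 and 1.16 fold, against 1.77 fold in Igkv10-96. Over the 15 pairs of these 6 segments, between 6 and 16 of the 18 libraries stood at the same level in both (median 10). The pair with 16 was Igkv10-96 and Igkv12-44, 1183 kb apart, which shared 9 of their 10 upper libraries, and the next pair had 12. Ighv14-2 and Ighv9-3, 146 kb apart, had 4 upper libraries in common, out of 12 and 6.

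**Figure D5:**
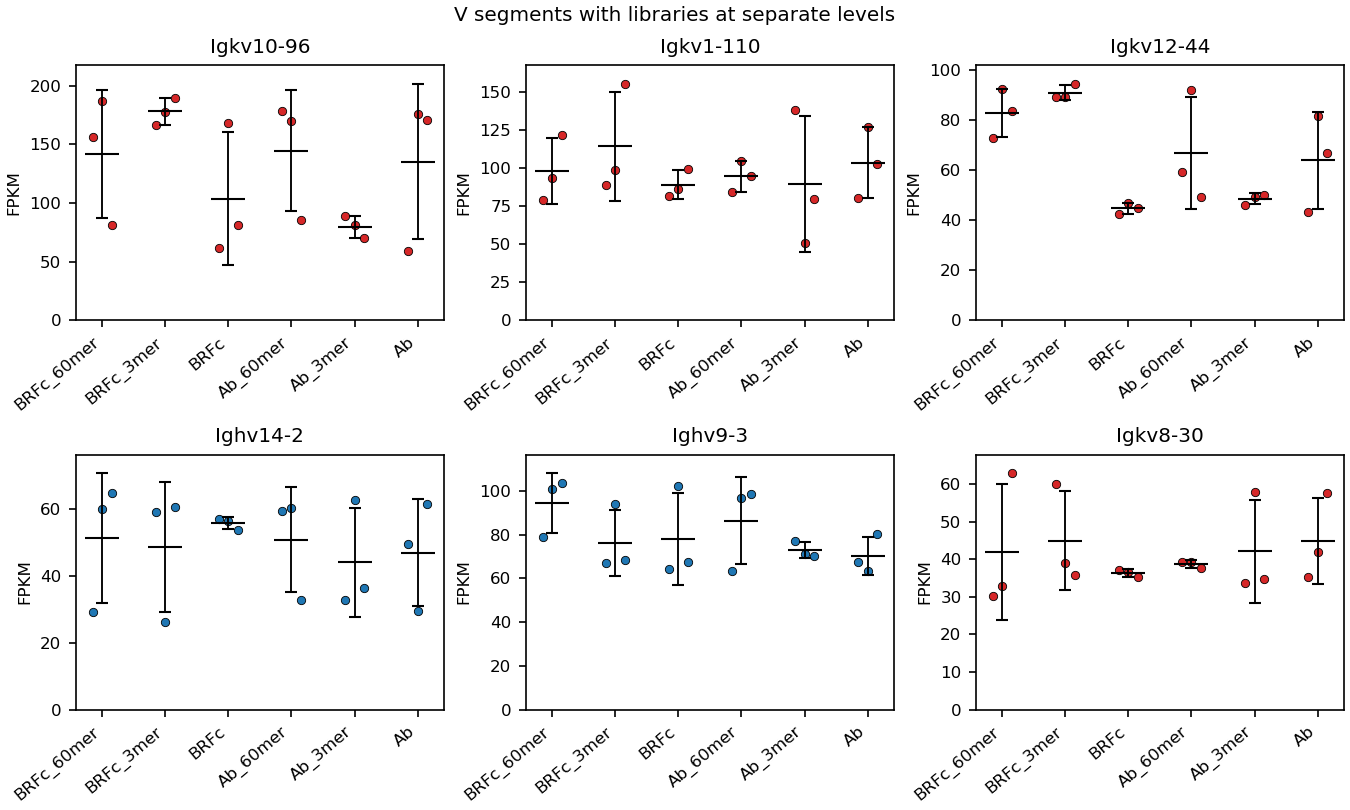
FPKM of the 6 V segments whose libraries fell at separate levels, in every library (points) with the mean and SD of each group of 3 (bars). Igkv10-96 has 10 libraries between 157 and 190 and 8 between 58.7 and 88.6, and libraries of 1 group stand on both sides of the gap in each of the 6 segments.

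The lambda segments also varied within groups. Iglv1 had 209, 212 and 237 FPKM in BRFc_60mer, 215, 207 and 293 in BRFc_3mer, 314, 303 and 214 in BRFc, 246, 229 and 310 in Ab_60mer, 190.2, 299.7 and 219 in Ab_3mer and 231, 271 and 207 in Ab. It was above 290 FPKM in 5 libraries from 4 groups. Iglv3, by contrast, had a coefficient of variation over the 18 libraries of 4.86%, against 17.1% for Iglv1 and 14.8% for Iglv2. Of the 6 highest heavy and 6 highest kappa members, Igkv1-135 (3.90%), Igkv6-23 (4.26%) and Ighv1-26 (4.95%) had the lowest coefficients of variation.

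Single libraries stood out most among low members. The 8 members with the largest ratio of the highest library to the median were Igkv18-36 (2.84), Ighv2-4 (2.38), Igkv4-62 (2.20), Igkv13-85 (2.16), Ighv1-31 (2.15), Igkv4-78 (2.11), Igkv6-29 (2.04) and Igkv4-54 (1.98). Their means lay between 1.04 and 3.08 FPKM, with between 6.28 and 18.4 fragments a library. No member of the set, with mean levels up to 245 FPKM, had a library at more than 2.84 times its median.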

How the data were processed

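The authors deposited a table of FPKM per gene for the 18 libraries, made by the sequencing provider per the labels' protocols. The aligner, the annotation and the genome build are not given in the sources used here, nor is how a fragment across a V(D)J joint was counted. Symbols, positions and sequences came from GENCODE M21 (GRCm38), which matched 34490 of 35275 gene IDs. The 11646 genes whose mean reached 1 FPKM entered limma 3.58.1 (R 4.3.3; trended eBayes on log2(FPKM + 1), 6 groups, Benjamini-Hochberg over all genes, threshold 0.05), checked on simulated data. The FPKM gave whole fragments to within 0.05 for 100% of the tested genes. These gave the library totals, the fragments per segment and the counting variance. The members and all gene lists were chosen with earlier results of these data known. Named genes are those passing a comparison (up to 8 each way), the 6 highest heavy and kappa members, all lambda members, the 8 with the highest library-to-median ratio, the 3 on each side of the threshold, and constant region or list genes beside a result. Sums got no test. Replicates are numbered in order of deposition, which the labels do not give as a pairing. The alternatives were a pseudocount of 0.1, no filter, a mean of at least 5 FPKM, median-of-ratios rescaling, only the groups compared, each library left out and, chosen after seeing the data, voom on recovered fragments and a replicate block by order of deposition. Figures were drawn with matplotlib 3.10.9, and coding sequences were aligned with biopython 1.88.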

Additional observations from a re-analysis of the deposited data

How the results depend on the processing

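The labels give no replicate numbers, so no pairing comes from the design. Over all genes, the deviations from the group means of libraries at the same place in the order of deposition had a median correlation of 0.0895 (over 0.1 in 19 of 45 pairs), against -0.0549 for other places, and 14 of 18 libraries were on average closest to their own place, a hint from the data only. Over the V segments these values were -0.0196 (7 of 45 pairs), 0.00586 and 6 of 18. With that order as a replicate block, chosen after seeing the data, all 6 called differences passed, and the V segments passing were 7 between Ab_60mer and Ab (4 in the main analysis), 3 between BRFc_60mer and BRFc (1), 2 between BRFc_60mer and BRFc_3mer (1), 1 between Ab_60mer and Ab_3mer (0) and 9 in the F test (5), with 0 in the other comparisons. Of the 6 differences that passed a pairwise comparison, 0 changed sign under any alternative. Without a filter on low values the number of V segments passing was 2 between Ab_60mer and Ab (4 in the main analysis), 0 between BRFc_60mer and BRFc (1), 0 between BRFc_60mer and BRFc_3mer (1) and 2 in the F test (5). A mean of at least 5 FPKM left 0 between BRFc_60mer and BRFc_3mer, since Igkv13-85 was then not tested. With voom on recovered fragments it was 2 between Ab_60mer and Ab, 0 between BRFc_60mer and BRFc_3mer and 3 in the F test. With only the groups compared it was 2 between Ab_60mer and Ab_3mer (0), 2 between BRFc_60mer and BRFc_3mer (1), 1 between BRFc_3mer and BRFc (0) and 2 between BRFc_3mer and Ab_3mer (0). Leaving out each library gave 2 to 5 between Ab_60mer and Ab, 0 to 3 between BRFc_60mer and BRFc, 0 to 2 between BRFc_60mer and BRFc_3mer, 0 to 1 between Ab_60mer and Ab_3mer, between Ab_3mer and Ab, between BRFc and Ab and for the interaction of the 3mer, and 3 to 7 in the F test. The counts of 1 for Ab_3mer against Ab, BRFc against Ab and that interaction arose without replicate 1 of Ab. The lowest counts between Ab_60mer and Ab (2) arose without replicate 1 or 3 of Ab or replicate 1 of Ab_60mer, and those between BRFc_60mer and BRFc (0) without replicate 3 of BRFc or replicate 2 of BRFc_60mer. Those between BRFc_60mer and BRFc_3mer (0) arose without any library of BRFc_60mer or replicate 2 of BRFc_3mer, and that in the F test (3) without replicate 2 of BRFc_60mer. The highest counts arose without replicate 1 of BRFc or of Ab_3mer (3 between BRFc_60mer and BRFc; 2 without replicate 3 of Ab), without replicate 3 of Ab_60mer (2 between BRFc_60mer and BRFc_3mer), and without replicate 1 of Ab_3mer, 2 of Ab_60mer, or 2 or 3 of BRFc_3mer (1 between Ab_60mer and Ab_3mer). Without replicate 3 of Ab_3mer, so that every library of Ab_60mer and Ab_3mer held connective tissue transcripts, 0 V segments passed between them. With all libraries 0 passed as well, so this count shows nothing about the part of those transcripts. Apart from the stated constructions, the cause was not tested. With a median of 140 fragments per member and library, the 95% interval of a member's log2 difference had a half-width of 0.104 to 0.874 (median 0.285).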
